A study of Acer rubrum with 15 samples.

Results

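Among the small RNAs of red maple leaves, 142 of 7972 predicted siRNA entries (1.78%) were listed with reads in at least 8 of 12 libraries taken on day 14 and at 0 in all 3 libraries taken on day 0. They were chosen from these very counts, so their step from 0 to listed is a description and was not tested. The leaves came from cuttings of Acer rubrum L. 'Autumn Blaze', a cultivar grown for autumn colour, from work on how leaves change colour when light and temperature vary. Each of the 5 groups held 3 libraries. Day 0 leaves (Control) came from untreated cuttings, and their label speaks of mixed leaves. The other leaves had spent 14 days under full light (100%) at 30 °C by day and 20 °C at night (CC), under 40% light at the same temperatures (CL), under full light at 15 °C and 5 °C (LC), or under 40% light at 15 °C and 5 °C (LL). All cuttings had grown in an ordinary greenhouse beforehand. The labels call the samples biological replicates without saying whether they came from separate plants, and a p-value here covers no more than the spread from sample to sample, which may be technical.

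Small interfering RNAs of plants are cut from double-stranded RNA by Dicer-like enzymes and loaded into ARGONAUTE proteins, which they guide to matching RNA or DNA. Many come from transposons and other repeats and direct DNA methylation that keeps these silent. Others are made as secondary siRNAs from transcripts that a miRNA has cut, and spread silencing to further transcripts. The entries carry numbers as their only names, such as novel_sir6939. Their sequences, lengths and genome positions were not analysed here, so which of these classes an entry belongs to is not stated.

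The siRNA entries of every library were listed either at 0 or with at least 10 reads. A listed 0 can therefore hide up to 9 reads, and "at 0" below means at 0 in the table. Depth bears on this limit. The Control libraries held 16440667 to 18557618 reads, against 20064125 to 20607370 in CC, 19018269 to 20822592 in CL, 15652847 to 16291802 in LC and 18166662 to 20613304 in LL. The smallest listed count of 10 reads corresponded to 0.539 to 0.608 CPM (reads per 1000000 reads of the library) in Control, 0.480 to 0.526 in CC and CL, 0.485 to 0.550 in LL and 0.614 to 0.639 in LC. The Control libraries were thus shallower than those of CC and CL, with the highest Control total above the lowest LL total, but deeper than those of LC. They also listed fewer siRNA entries of any kind, 3232 to 3655, against 3787 to 5025 in CC, 5038 to 5097 in CL and 3820 to 4098 in LL; LC listed 2908 to 3286. In bulk leaves, fewer cells that make an siRNA and less of it per cell cannot be told apart.

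Most of the 142 entries lay close to the listing limit. Their 1288 listed values on day 14 had a median of 16 reads, with the middle of the distribution between 12 and 22 reads, and 66.9% of the values were under 20 reads. In the 3123 other entries that were listed in at least 8 of the 12 day 14 libraries and also in Control, the median listed value was 39 reads and 22.3% of the values were under 20. Only 36 values of the 142 entries (2.80%) reached 50 reads. The mean level over the 12 day 14 libraries had a median of 0.670 CPM (quartiles 0.558 and 0.825), against 1.84 CPM (0.994 and 4.47) in the other 3123.

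The share of entries at 0 in Control fell with level. When all 3265 entries listed in at least 8 of the 12 day 14 libraries were ordered by mean level and split into 5 bins of 653, 107 of the lowest bin (16.4%) were at 0 in all 3 Control libraries. The number was 29 in the next bin (4.44%), 3 in the middle bin (0.459%), 0 in the following one and 3 in the highest (0.459%). Those last 3 entries, described below, stood apart from the rest of the set. The other 139 all came from the lower 3 bins, with mean levels up to 2.24 CPM.

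**Figure D1:**
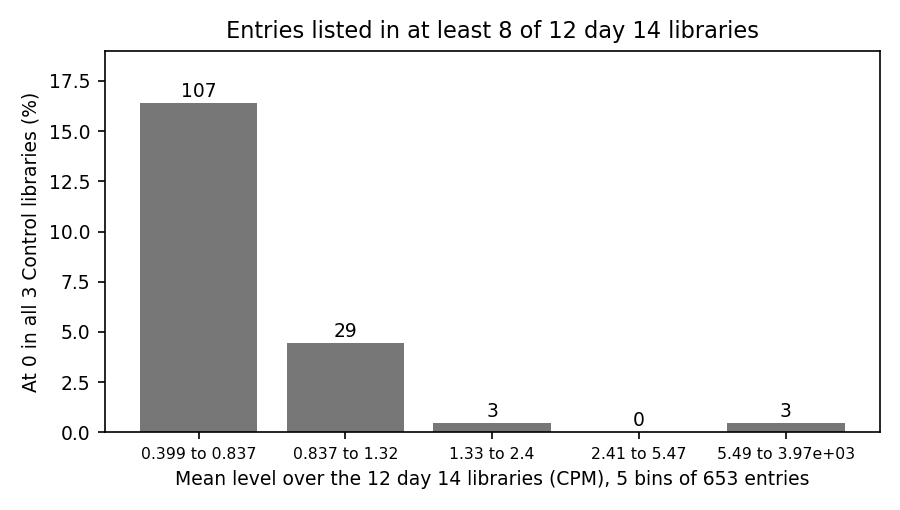
Percent of siRNA entries at 0 in all 3 Control libraries, for the 3265 entries listed in at least 8 of 12 day 14 libraries, in 5 bins of 653 by mean level over the day 14 libraries (CPM, x axis). Numbers over the bars count the entries at 0 in Control: 107 in the lowest bin and 3 in the highest.

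How far the day 14 counts stood above Control can be described by letting each Control 0 stand for 9 reads, a mean of 0.526 CPM. The rule set both sides of this comparison, so a higher day 14 mean is in large part given by the choice of entries. The ceiling covers the reads of these Control libraries and does not bound the level in day 0 leaves. Against this ceiling, the mean day 14 level was higher in 114 of the 142 entries and at or below it in 28. It was at least 2-fold higher in 11 entries, and at least 5-fold higher in 3. The next entry below the 2-fold line stood at 1.98 times the ceiling. The number of entries also moved with scaling. With day 14 counts scaled by library totals to the shallowest Control library and the limit of 10 reads then applied, 63 met the rule. Scaled by siRNA reads, 41 did. A listed 0 stays 0 on scaling, so with Control unscaled this step could only take entries out. How far depth sets the number was not tested. With Control replicate 2 or 3 left out, 234 or 257 entries were at 0 in the remaining Control libraries. With 1 day 14 library left out, the count was 87 without CC replicate 1 and 88, 86 and 94 without CL replicates 1, 2 and 3. The 268 entries that met the day 14 rule but were listed in a single Control library had a median of 13 reads there, and 245 of them had under 20.

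At the edge of the rule, 59 of the 142 entries were listed in exactly 8 libraries, with mean levels of 0.411 to 0.959 CPM. The 3 lowest of them, novel_sir2246, novel_sir1837 and novel_sir8629, had listed values of 10 to 18 reads. Another 98 entries at 0 in Control were listed in exactly 7 day 14 libraries and fell outside. Their median level was 0.463 CPM, against 0.556 CPM for the 59 just inside, but the highest of those outside were far above the limit. novel_sir5801 had 2387, 2298 and 3155 reads in LL and at most 143 elsewhere, and novel_sir5749 had 414, 844 and 598 reads in LC and at most 24 elsewhere. Of the 142 entries, 40 were listed in 9 libraries, 22 in 10, 16 in 11 and 5 in all 12.

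The same rule was applied with each group in the place of Control. It found 16 entries at 0 in all CC libraries and listed in at least 8 of the other 12, 21 entries at 0 in CL and 78 at 0 in LL, against 142 at 0 in Control. For LC it found 644. As a share of the entries listed in at least 8 of the other 12 libraries, these were 0.519% for CC, 0.707% for CL, 2.50% for LL, 4.35% for Control and 18.8% for LC. The order of these shares, from CC through CL, LL and Control up to LC, was also the order of falling mean library totals. Every LC library was shallower than every Control library. How far depth sets these numbers was not tested.

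By group mean, the 142 entries were listed most often in the warm shaded leaves and least often in the cool, fully lit ones. CL libraries held 126 to 135 of them, CC libraries 101 to 133, LL libraries 101 to 122 and LC libraries 71 to 73. The CL and CC libraries overlapped, as did the CC and LL libraries, while every LC library lay below every library of the other 3 groups. CC replicate 1, with 133 entries and the highest share of siRNA reads of all libraries (3.73%), stood above CC replicates 2 and 3, with 101 and 112. The 3123 other entries showed the same low place of LC, at 75.2% to 77.5% listed against 91.5% to 98.0% in the remaining day 14 libraries, and LC was also the shallowest group. The high place of CL was shared as well: CL libraries listed 96.7% to 98.0% of the 3123, and CC libraries at most 96.0%. Of the 142, 43 (30.3%) were at 0 in all 3 LC libraries, 7 in all LL libraries, 1 in all CL libraries and none (0) in all CC libraries. Of the 3123 others, 394 (12.6%) were at 0 in all LC libraries.

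**Figure D2:**
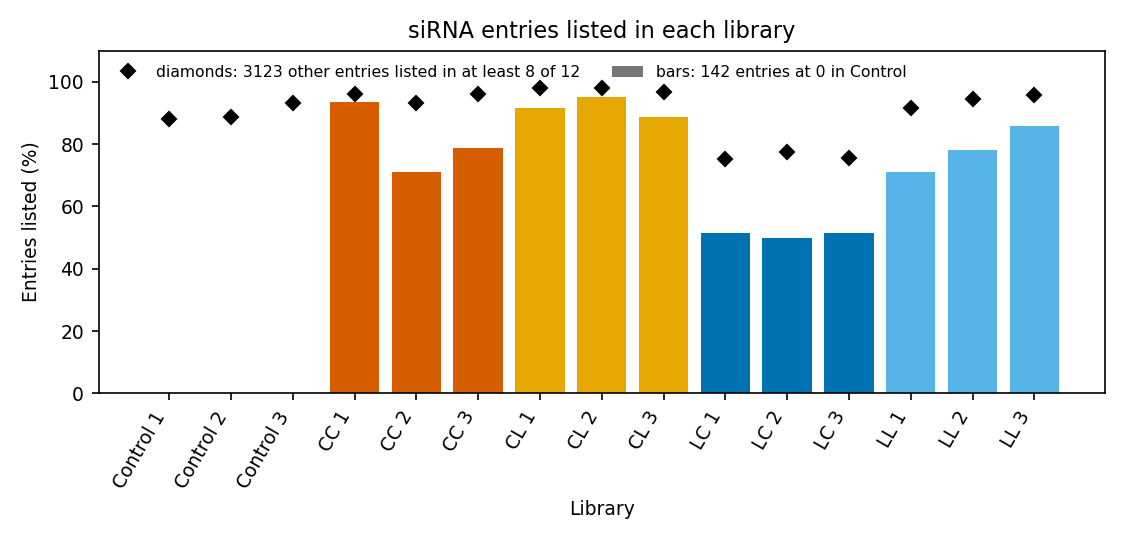
Percent of entries listed with reads in each of the 15 libraries: bars, the 142 entries at 0 in Control, coloured by group; diamonds, the 3123 other entries listed in at least 8 of 12 day 14 libraries. The 3 LC bars (71 to 73 entries) stand below those of CC, CL and LL (101 to 135 entries).

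**Figure D3:**
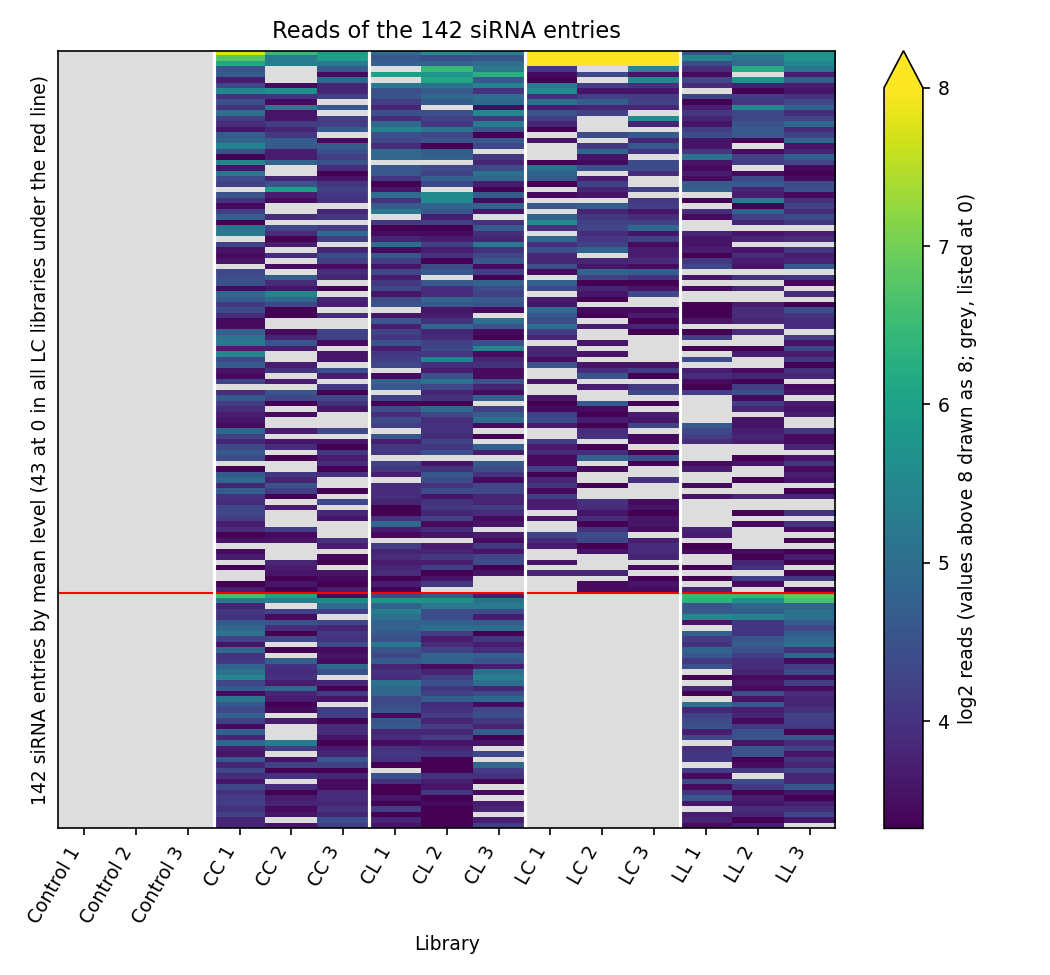
Reads of the 142 entries (rows, by mean level) in the 15 libraries (columns) on a log2 scale, grey where listed at 0. Under the red line are the 43 entries at 0 in all LC libraries; the Control columns are grey by the choice of entries, and the yellow cells at the top are the 3 entries high in LC.

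Those 3 entries of the highest bin, novel_sir6939, novel_sir5747 and novel_sir6911, were abundant in LC and low but present in every other day 14 library. novel_sir6939 was listed at 0 in the 3 Control libraries, at 216, 88 and 60 reads in CC, 32, 48 and 41 in CL, 4240, 6451 and 6479 in LC and 23, 46 and 52 in LL. Every LC library lay at least 19.6 times above the highest of the other libraries. novel_sir5747 had 108, 39 and 62 reads in CC, 24, 22 and 23 in CL, 2443, 4571 and 2423 in LC and 44, 34 and 52 in LL. novel_sir6911 had 70, 40 and 38 reads in CC, 27, 28 and 32 in CL, 569, 1141 and 1377 in LC and 21, 32 and 45 in LL. In each of the 3 the LC libraries lay far above all others. CL and LL overlapped for novel_sir6939 and novel_sir6911, while for novel_sir5747 every LL library lay above every CL library. The lowest day 14 library stood 2.31 times above the highest level that a Control 0 can hide for novel_sir6939, 1.93 times for novel_sir5747 and 2.11 times for novel_sir6911. Their presence on day 14 therefore did not rest on LC.

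Between regimes the counts were compared with edgeR's quasi-likelihood test over the 12 day 14 libraries, fitted on all 5533 small-RNA entries that passed its filter on low counts. All 142 entries passed this filter. An entry was called at an adjusted p (Benjamini-Hochberg, over those 5533) under 0.05. Levels are in CPM as mean ± SD (n = 3), and log2 differences carry ± SE. Temperature and light were not used to choose the entries, but the demand for 8 listed libraries kept out entries listed in 2 groups alone. An entry at 0 in a whole group met this demand only if listed in at least 8 of the other 9 day 14 libraries. The rule thus shaped the calls of such entries in each comparison that involves that group. The 5533 tested entries were not held to the rule, so their shares are not like for like with those of the 142.

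LC against CC asked what the cool regime changed under full light. novel_sir6939 stood at 358 ± 84.8 CPM in LC and 5.92 ± 4.01 in CC (log2 difference 6.02 ± 0.49, adjusted p = 0.000129). novel_sir5747 stood at 196 ± 75.3 against 3.41 ± 1.70 CPM (5.92 ± 0.39, adjusted p = 5.65e-05) and novel_sir6911 at 64.5 ± 27.0 against 2.41 ± 0.853 CPM (4.81 ± 0.40, adjusted p = 0.000139). These 3 were the only entries of the 142 called higher (2.11%), in a comparison that called 5.13% of all tested entries higher. Another 43 (30.3%) were called lower, against 13.3% of all tested entries, and they were exactly the 43 at 0 in all LC libraries. To meet the rule these 43 had to be listed in nearly all libraries outside LC, so the choice of entries shaped these calls. In either direction, 32.4% of the 142 and 18.4% of all tested entries were called. The median log2 difference was -0.56 for the 142 and -0.37 for all tested. Most of these lower calls rest on what a 0 hides: with each listed 0 of siRNAs and predicted miRNAs set to 9 reads, 4 of the 43 were still called lower (novel_sir8262, novel_sir3500, novel_sir1660 and novel_sir5106), and 7 with 5 reads, while the 3 higher calls were kept and 8 more appeared at 9 reads. At 9 reads the 15 calls were 10.6% of the 142, below the 15.1% of all tested entries called at that setting. The 46 calls also fell to 21 and 27 without CC replicates 1 and 3, 30 and 27 without CL replicates 1 and 2, 24, 20 and 20 without LC replicates 1, 2 and 3, and 26 and 29 without LL replicates 2 and 3. The 3 higher calls were kept in each of these.

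Under 40% light, cool against warm (LL against CL), the 3 abundant entries did not repeat this. The log2 difference was 0.22 ± 0.41 for novel_sir6939 (adjusted p = 0.875), 0.39 ± 0.36 for novel_sir6911 (0.668) and 1.15 ± 0.34 for novel_sir5747 (0.0944, and under 0.05 with DESeq2, with a stricter filter and with zeros set to 5 reads). None (0) of the 142 entries was called higher and 2 (1.41%) were called lower, novel_sir7579 and novel_sir5737, named here after their values were seen. In this comparison 3.85% of all tested entries were called, 1.86% higher and 1.99% lower. novel_sir7579 had 10, 10 and 25 reads in CL, 16, 20 and 29 in LC, 35, 20 and 18 in CC, and was at 0 in all 3 LL libraries (adjusted p = 0.0143, and 0.000231 to 0.582 over all alternatives). novel_sir5737 had 21, 29 and 25 reads in CL and was likewise at 0 in LL (adjusted p = 0.0438, and 0.000446 to 0.142 over all alternatives). With listed zeros at 9 reads, the call of novel_sir5737 held and that of novel_sir7579 did not. The counts of calls were small throughout: 1 without CC replicate 1, CL replicate 1 or 2, LC replicate 2, or LL replicate 2 or 3, and 5 without CC replicate 2.

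Shade in the warm regime (CL against CC) gave no call among the 142 (0, with 7 at an unadjusted p under 0.05 by edgeR, and 3 calls by DESeq2), and 0.578% of all tested entries were called, 0.199% higher and 0.38% lower. DESeq2 called 4.57% of all tested entries. The median log2 difference was 0.36 for the 142 and 0.23 for all tested. A single call appeared without CL replicate 2 or 3, LC replicate 1 or 2, or LL replicate 1. The largest shift towards CL among the 10 most abundant entries was that of novel_sir7703, with 63, 54 and 76 reads in CL against 26, 0 and 11 in CC, 11, 20 and 12 in LC and 11, 0 and 13 in LL. Its CL libraries did not overlap with any other, but its difference did not pass (2.44 ± 1.10, adjusted p = 0.315). With zeros at 9 reads it did.

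In the cool regime, 40% light against full light (LL against LC) separated the entries most. Of the 142, 43 (30.3%) were called higher in LL and 10 (7.04%) lower, against 14% and 6.18% of all tested entries (20.1% in either direction). The 43 were again those at 0 in all LC libraries, for which the rule shaped this comparison too. Of these 43, 8 were still called with zeros at 9 reads. The 10 lower were the 3 entries abundant in LC and all 7 at 0 in the LL libraries, and 5 of these 10 were kept at 9 reads. At 9 reads there were 9 higher and 10 lower calls, 13.4% of the 142 against 15.7% of all tested entries. At 5 reads the 23 higher and 22 lower calls were 31.7% of the 142, above the 23.7% of all tested entries. The 53 calls fell to 30 and 33 without LC replicates 2 and 3, and to 28 and 31 without LL replicates 2 and 3. The log2 difference was -7.37 ± 0.52 for novel_sir6939 (adjusted p = 6.14e-05), -6.36 ± 0.40 for novel_sir5747 (3.42e-05) and -5.20 ± 0.41 for novel_sir6911 (7.89e-05).

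Among the 43 entries at 0 in LC, 2 stood well above the limit in LL. novel_sir3500 had 97, 66 and 11 reads in CC, 20, 26 and 13 in CL and 90, 89 and 118 in LL. Its LL level of 5.17 ± 0.486 CPM was at least 9.21-fold higher than LC could hide at 9 reads per library, a ratio that was not itself tested. The edgeR test of LL against LC, with zeros taken as 0 reads, gave an adjusted p of 0.000698 (7.20e-09 to 0.00298 over all alternatives). The CC level of novel_sir3500, 2.82 ± 2.11 CPM, was at least 5.03-fold higher than LC could hide. Its CC replicate 3 and CL replicate 3, at 11 and 13 reads, lay near the limit. novel_sir8262 had 38, 39 and 46 reads in CC, 55, 51 and 33 in CL and 81, 51 and 100 in LL. Its LL level of 4.02 ± 1.11 CPM was at least 7.17-fold higher than LC could hide, and its CC level at least 3.58-fold higher. The same edgeR test of LL against LC gave it an adjusted p of 0.000120 (6.41e-10 to 0.000876 over all alternatives). In CPM, every LL library of novel_sir3500 lay above every CC and CL library, while the LL and CL libraries of novel_sir8262 overlapped. Of the 43, 15 were listed in all 9 libraries outside LC. In 12 of the 43 the LL mean was at least 2-fold over the LC ceiling, and in 5 the CC mean. novel_sir8905, the fourth of these by LL level, had 17, 19 and 18 reads in CC, 40, 21 and 21 in CL and 25, 26 and 34 in LL, at least 2.63-fold higher in LL.

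**Figure D4:**
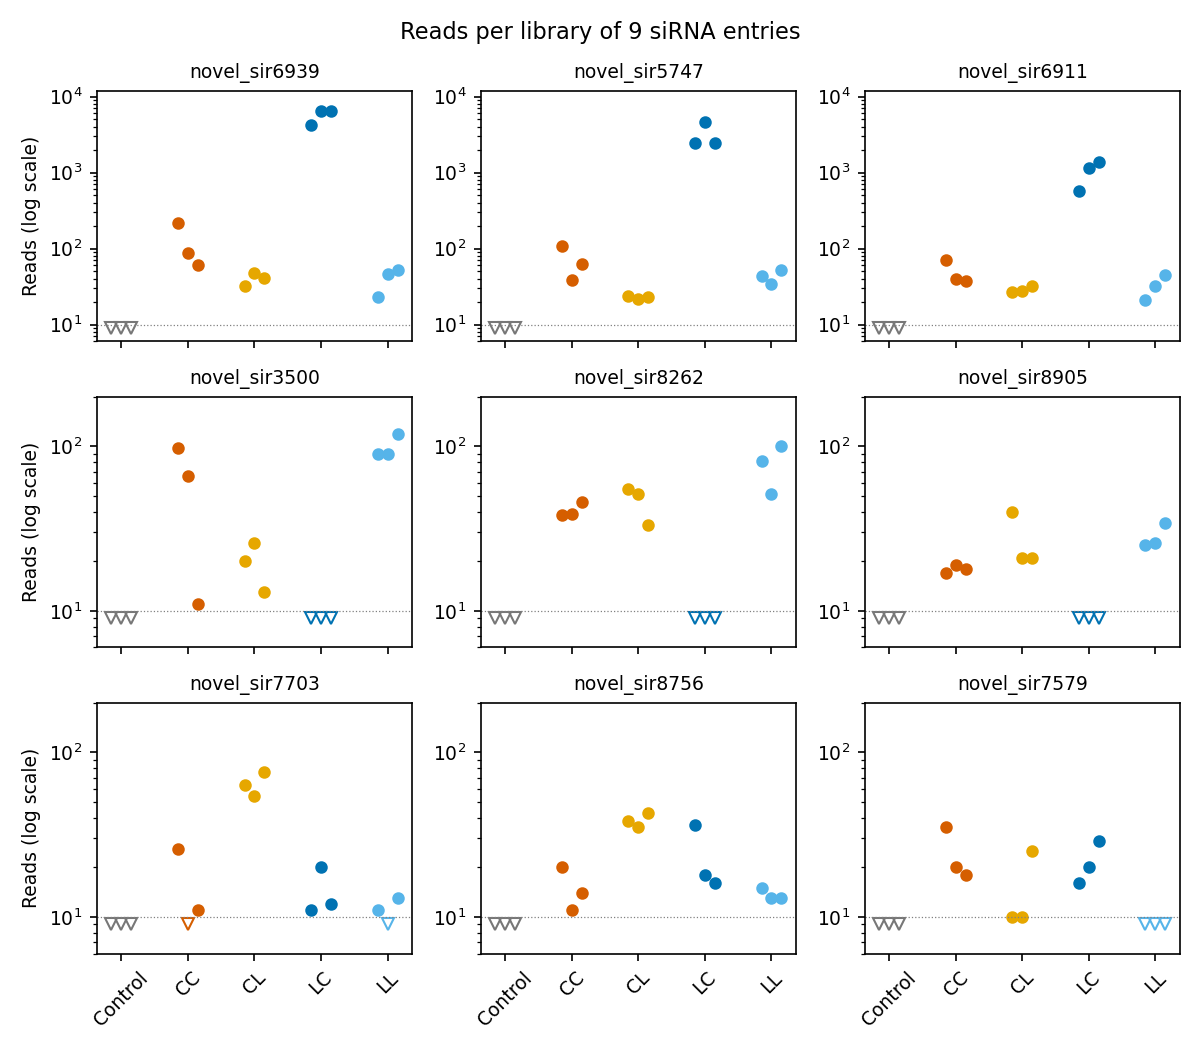
Reads per library (log scale) of 9 entries: the 3 abundant in LC, 3 at 0 in LC, and novel_sir7703, novel_sir8756 and novel_sir7579. Each filled point is a library; an open triangle at 9 reads marks a library listed at 0, and the dotted line is the smallest listed count of 10.

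Averaged over both light levels, 4 of the 142 entries were called higher in the cool regime (2.82%) and 25 lower (17.6%), against 3.25% and 11.5% of all tested entries. The 4 were the 3 entries abundant in LC and novel_sir6806, which had 11, 27 and 22 reads in LC, 0, 10 and 12 in LL, 21, 10 and 13 in CC and was at 0 in all CL libraries. Its call was lost under most alternatives (adjusted p up to 0.121). Of the 25 lower calls, 23 were entries at 0 in LC, and 4 of the 25 were kept with zeros at 9 reads. The remaining 2 were novel_sir7579 and novel_sir5737. The 29 calls fell to 19 without CC replicate 1 or CL replicate 2. Averaged over both temperatures, 27 entries (19%) were called higher under 40% light and 5 (3.52%) lower, against 10.8% and 3.81% of all tested. All 27 were at 0 in LC, and 5 of them were kept at 9 reads. The balance of directions turned with the zeros: 10 higher and 15 lower at 5 reads, and 6 higher and 9 lower at 9 reads. The 5 lower calls, kept at both settings, were the 3 abundant entries, novel_sir6806 and novel_sir7579. That of novel_sir6806 was lost under other alternatives (adjusted p up to 0.055).

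Few of the 142 entries split cleanly by a single factor, but the choice of entries limited such splits. The rule kept out any entry at 0 in every cool, every warm, every 40% or every full-light library. Clean splits were not counted over all tested entries, so how the 142 compare with those was not tested. Across the 6 libraries of each side, 3 of the 142 lay lower in every cool library than in every warm one, of which 1 was called, novel_sir273 (adjusted p = 0.0403, and up to 0.271 over all alternatives), and 0 lay higher. For light, 2 lay higher in every 40% library than in every full-light one, novel_sir1289 and novel_sir8905, both called, and 2 lay lower, of which novel_sir6939 was called. novel_sir1289 had 20, 28 and 27 reads in CL and 24, 18 and 29 in LL, against 16, 0 and 12 in CC and 0 in LC (adjusted p = 0.0157 for light, 0.000124 to 0.0467 over all alternatives). Its 2 shaded groups overlapped with each other, and each lay above both full-light groups.

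Whether the effect of temperature depended on light was tested by the interaction, the log2 difference of LL against CL minus that of LC against CC. It was called for 29 of the 142, 22 (15.5%) positive and 7 (4.93%) negative, against 8.46% and 3.43% of all tested entries. All 22 positive calls were entries at 0 in LC, and 6 of them were kept at 9 reads. Here too the balance turned, to 14 positive and 17 negative at 5 reads and 8 positive and 13 negative at 9 reads. These calls were 21.8% of the 142 at 5 reads and 14.8% at 9 reads, above the 18.5% and 11.9% of all tested entries. The negative calls held the 3 abundant entries and, at lower counts, novel_sir8756, one of the 5 entries listed in all 12 libraries. It had 20, 11 and 14 reads in CC, 38, 35 and 43 in CL, 36, 18 and 16 in LC and 15, 13 and 13 in LL. CL lay above CC and LL in every library (interaction -2.28 ± 0.60, adjusted p = 0.0314, and 0.00862 to 0.110 over all alternatives). CL and LC overlapped in reads, at 35 in the lowest CL and 36 in the highest LC library, and no single comparison of 2 regimes passed for it. Another entry listed in all 12, novel_sir8528, had 15 to 32 reads throughout and was called in no comparison.

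As a sum, the 142 entries took 690 ± 152 CPM in LC, 131 ± 5.56 in CL, 113 ± 33.4 in CC and 108 ± 7.94 in LL. The LC sum was 6.13 times that of CC. The 3 abundant entries made this difference: without them LC had 71.7 ± 5.54 CPM, the lowest of the 4 groups, against 101 ± 27.0 in CC, 126 ± 5.66 in CL and 102 ± 6.94 in LL, and the ratio of LC to CC was 0.712. With the 3 left out every LC library (66.1 to 77.2 CPM) lay below every library of the other groups (82.8 CPM and above). This separation rested on taking zeros as 0 reads. At 9 reads LC summed to 111 ± 4.88 CPM and CC to 113 ± 20.1, the libraries overlapped, and the ratio was 0.985.

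The LC pattern of the 3 abundant entries was not theirs alone. In 11 siRNA entries of the whole table, each LC library held at least 10 times the reads of every other library, with a 0 taken as 9 reads. Of these, 10 were at 0 in Control, and novel_sir6939 and novel_sir5747 were the 2 that also met the rule of 8 libraries. The other 8 were listed in too few libraries, such as novel_sir8420 with 839, 937 and 885 reads in LC and 10 in CC replicate 1 as its only other value. novel_sir5749, next but one in number to novel_sir5747, and novel_sir6938, next to novel_sir6939, showed it too. The criterion was chosen after the values were seen.

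Entries with neighbouring numbers could also share which libraries they were listed in. novel_sir7545 had 13, 0 and 30 reads in CC, 0, 67 and 24 in CL, 10, 0 and 46 in LC and 20, 53 and 26 in LL. novel_sir7547 had 23, 0 and 25 reads in CC, 0, 89 and 36 in CL, 17, 0 and 45 in LC and 15, 74 and 35 in LL. Both were at 0 in CC replicate 2, CL replicate 1 and LC replicate 2, and both were highest in CL replicate 2. novel_sir7546, which was listed in every library and so is not among the 142, was lowest on day 14 in CC replicate 2 and LC replicate 2, at 14 and 23 reads, and highest in CL replicate 2, at 560 reads. Neither of the 2 entries was called in any comparison.

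Absence from LC was uneven along the entry numbers. All 12 of the 142 entries numbered 1 to 1600 were at 0 in the 3 LC libraries, against 31 of the 130 with higher numbers. The same held for siRNA entries in general. In the first 2 blocks of 800 numbers, LC libraries listed 15.9% and 18.9% of entries, and in the later blocks 28.4% to 54.1%. The Control libraries listed 38.3% to 46.3% in every block and the CL libraries 56.7% to 68.1%. The sources used here do not say how the numbers were given.

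**Figure D5:**
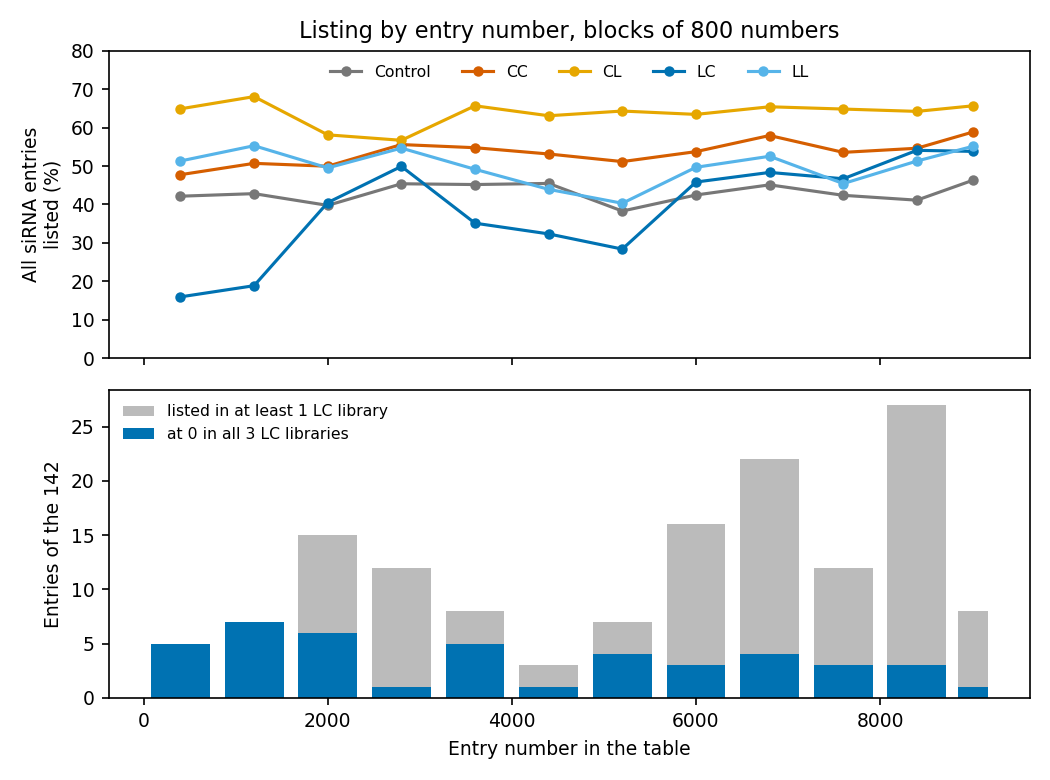
Top, percent of all siRNA entries listed, averaged over the 3 libraries of each group, by entry number in blocks of 800. Bottom, the 142 entries in the same blocks, with those at 0 in all 3 LC libraries in blue; all 12 in the first 2 blocks were at 0 in LC.

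Regulators of the small-RNA machinery were read beside the siRNAs, as a list of 10 known mature miRNAs: miR162, which targets DICER-LIKE1, miR168, which targets ARGONAUTE1, miR403, which targets ARGONAUTE2, and miR390, which triggers trans-acting siRNAs. In LC against CC, 3 of the 10 were called higher, all of them miR168 entries, and 0 lower, against 5.13% and 13.3% of all tested entries. The call of miR168-5p was lost under 10 of 21 alternatives. The largest was miR168a-5p (2.31 ± 0.33, adjusted p = 0.000859, kept under each alternative). In LL against LC, 0 were higher and 5 lower, 4 miR168 entries and miR390a-5p (-1.97 ± 0.34, adjusted p = 0.00192, kept under each alternative), against 14% and 6.18% of all tested entries. The call of miR168b_1 was lost under 11 of 21 alternatives and that of miR168-5p under 4. In LL against CL and CL against CC none (0) of the 10 was called. The smallest adjusted p was that of miR168 in both, 0.0624 (1.35 ± 0.35) and 0.0561 (-1.79 ± 0.35). Averaged over both temperatures, 0 were higher under 40% light and 5 lower, against 10.8% and 3.81% of all tested entries. These 5 were the 4 miR168 entries and miR390a-5p, each kept under each alternative. Averaged over both light levels, 3 were higher in the cool regime and 0 lower, against 3.25% and 11.5%. Whether these miRNAs bear on the siRNAs was not tested.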

How the data were processed

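One table covers all 15 libraries. Per the labels' protocols, RNA came from a Qiagen column kit, and small-RNA libraries were amplified by PCR and size-selected on a gel. Counts were deposited as raw reads per entry. The authors' TPM values, per the file headers, are scaled to 1000000 reads of the library and were not used. Not given in the sources used here are the trimming, the aligner, the siRNA prediction and how multiply matching reads were counted. Counts of siRNAs and predicted miRNAs are 0 or at least 10, so the ceiling for a 0 is 9 reads per library, in place of the planned floor of 3 counts.

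Levels (CPM) are reads per 1000000 of all reads of the table. Tests used edgeR 4.0.16 (R 4.3.3): all 8846 entries that name a small RNA, filterByExpr defaults, trimmed-mean-of-M-values scaling (factors 0.594 to 1.53), 1 mean per group over the 12 day 14 libraries, 7 comparisons, Benjamini-Hochberg adjustment over 5533 entries. The SE is the absolute log2 difference over the square root of F. Fitted log2 differences of groups at 0 depend on the prior count and are not printed. The entries and lists were chosen with earlier results of these data known. Named were the 10 highest by mean level, up to 10 with the smallest adjusted p for temperature, light and interaction, and those without overlap. A part of these is described, and others were named after their values were seen. Alternatives were other scalings, filters, DESeq2 1.42.0, a replicate block, all 15 libraries, siRNA entries only and left-out libraries. Zeros set to 5 or 9 reads were added after seeing the data. The fit was also run on simulated data with a smaller spread between libraries than the real counts, so that run cannot speak for counts this variable. Libraries of a group differed far beyond sampling noise, with chi-square per degree of freedom of at least 32.5. Figures were drawn with matplotlib 3.10.9 in Python 3.11.15.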

Additional observations from a re-analysis of the deposited data

Results flagged for a closer look

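The effect of temperature differed between the 2 light levels for 29 of the 142 entries, by the interaction test of edgeR, which called 11.9% of all tested entries. Of the 22 positive calls, 6 were kept with zeros at 9 reads. Among those with the smallest adjusted p, the log2 difference of differences was -5.81 for novel_sir6939, -4.78 for novel_sir5747 and -4.43 for novel_sir6911, the entries abundant in LC. For the following entries, at 0 in every LC library, a fitted difference has no bound and the adjusted p alone is given. It was 0.00106 for novel_sir8262, 0.00196 for novel_sir3500, 0.00252 for novel_sir1660, 0.0026 for novel_sir6739, 0.0026 for novel_sir8905, 0.00285 for novel_sir5106 and 0.00433 for novel_sir1552. With zeros at 9 reads the calls of novel_sir8905, novel_sir5106 and novel_sir1552 were lost, with adjusted p up to 0.213, 0.325 and 0.121, and that of novel_sir5106 also at 5 reads. LC was the shallowest group, and the part of depth in these results was not tested.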

How the results depend on the processing

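The counts of called entries moved with what a 0 stands for. In the order LC against CC, LL against CL, CL against CC, LL against LC, temperature and light, the counts were 46, 2, 0, 53, 29 and 32. With zeros at 9 reads they were 15, 12, 7, 19, 13 and 15, where 15.1%, 10.2%, 6.9%, 15.7%, 14.4% and 13% of all tested entries were called. With zeros at 5 reads they were 22, 11, 9, 45, 17 and 25, where 20.1%, 12%, 8.28%, 23.7%, 17.6% and 19.1% of all tested entries were called. The interaction had 31 calls at 5 reads and 21 at 9 reads, where 18.5% and 11.9% of all tested entries were called. A minimum count of 30, which left 12 of the 142 entries to test, gave 7 calls in LC against CC, 2 in CL against CC, 7 in LL against LC, 6 for temperature, 7 for light and 8 for the interaction (29 otherwise). In the same order it called 27.3%, 5.07%, 29.2%, 22.7%, 21.1% and 20.1% of all entries tested there. DESeq2 gave 10 calls in LL against CL, 3 in CL against CC, 49 for light and 50 for the interaction. In these it called 8.35%, 4.57%, 20.2% and 18.2% of all tested entries. LL against CL had 1 call with no filter, with all 15 libraries and with siRNA entries alone, where 1.44%, 3.57% and 2.32% of all tested entries were called. CL against CC had 1 with all 15 libraries, where 1.32% were called. No clear pairing by replicate number was seen: 3 of 18 same-numbered pairs correlated above 0.1 and 5 of 12 libraries correlated best with their own number. With 3 libraries per group, these correlations cannot exclude a pairing. With the replicate block there were 20 calls in LC against CC, 1 in LL against CL, 28 in LL against LC, 18 for temperature and 17 for the interaction. In the same order, 11.8%, 1.5%, 14.1%, 9.83% and 8.96% of all tested entries were called. Leaving out 1 library gave 20 to 35 calls in LC against CC, 1 to 5 in LL against CL, 0 to 1 in CL against CC, 28 to 50 in LL against LC, 19 to 36 for temperature, 22 to 35 for light and 20 to 33 for the interaction. The shares of all tested entries called were, in the same order, 10.8% to 13.8%, 0.363% to 5.05%, 0.146% to 2.12%, 11.5% to 19.4%, 8.33% to 15.3%, 8.33% to 13.5% and 7.44% to 11.2%. Leaving out 1 library also gave 86 to 257 entries meeting the rule, fewer without a day 14 library and more without a Control library, as the rule forces. Without 1 LC library, 46 to 54 entries were at 0 in LC.

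A demand for 7, 9, 10, 11 or 12 listed libraries gave 240, 83, 43, 21 or 5 entries, and scaling to the shallowest Control library 63 or 41. The ratio of LC to CC sums was 0.712 without the 3 abundant entries and 0.985 with zeros at 9 reads as well. The named entries, picked for level, small adjusted p or lack of overlap, held 82 called pairs of entry and comparison. Calls of entries not named are not in this count. Of the 82, 33 were kept under every alternative and 48 were lost with zeros at 9 reads. There 4 reversed: light for novel_sir1660 (-0.17) and temperature for novel_sir1900 (0.00081), novel_sir3500 (0.16) and novel_sir6739 (0.012). The cause was not tested. Zeros at 9 reads moved the median of all tested entries by 0.45 in LC against CC, and all reads as library size by -0.16 in LL against CL. Counts near 10 reads limit what can be told of most entries.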
